A study of Mus musculus with 6 samples.

Results

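The 37 genes described here encode proteins of nerve cells: 12 of synaptic vesicles and their fusion, 9 of the active zone and of adhesion between nerve cells, 8 neurotransmitter receptor subunits, 3 ion channels, 4 growth, cytoskeletal and trophic genes, and Rest, which encodes a repressor of neuronal genes. They were chosen by name with the peaks of these data already known, and accessibility peaks were assigned to a gene when they overlapped its body or the 20 kb on either side (mm10, GENCODE M21). All 37 were found among the 21755 protein-coding genes of chromosomes 1 to 19 and X. The cells were M-MDSCs (the monocytic type of myeloid-derived suppressor cell, which restrains T cells), sorted as CD11b+ Ly-6Chi Ly-6G- from tumors. The tumors were orthotopic Hepa 1-6 hepatomas grown in the liver of wild-type young adult female C57BL/6J mice. The mice received vehicle, MS-275 or CXD101 by daily intraperitoneal injection, with the inhibitors at a single common dose. MS-275 and CXD101 both inhibit the class I histone deacetylases HDAC1 to HDAC3. There were 6 ATAC-seq libraries, 2 per group.

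Neurotransmitter is packed into synaptic vesicles, which synapsins tether, SNARE proteins such as syntaxin 1A and SNAP-25 fuse with the membrane, and synaptotagmins couple to calcium. RIM and Munc13 proteins dock and prime the vesicles at the active zone beside voltage-gated calcium channels, while neurexins and neuroligins join the membranes across the cleft. Outside the nervous system many such genes are held silent by REST, a zinc finger protein that binds the RE1 element and brings in corepressor complexes containing HDAC1 and HDAC2. Myeloid cells have no synapses.

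The authors pooled the libraries of a group and compared groups in pairs with the peak caller MACS2, which gave 6 lists. A peak of the list MS-275 over vehicle, for example, is a site with more signal in the MS-275 pool than in the vehicle pool. The lists held 8480 peaks for MS-275 over vehicle, 284 for CXD101 over vehicle, 691 for vehicle over MS-275, 693 for vehicle over CXD101, 1650 for MS-275 over CXD101 and 2 for CXD101 over MS-275. The paper reports more peaks for each inhibitor against vehicle, above all for CXD101, so the counts below hold for these lists only. Each value below is a pool of 2 libraries, with no value per library, so no difference has a replicate check. Fold enrichment is the authors' linear ratio of the pools at the summit, and every listed peak had a q-value of at most 0.05. The tags behind each ratio, meaning the pileup of the first pool and the local level of the second, were solved from the fold and the p-value and are at the depth of the shallower pool. In such bulk samples, more cells with an open site and a site more open in each cell cannot be told apart. Since the lists hold only sites that differed, the sorted cell type could not be checked by a level. Of 13 listed monocyte marker genes 7 had a peak of MS-275 over vehicle, beside a background of 18.8% of all protein-coding genes and 2.49 given by the shares of genes of like length, and of 7 neutrophil markers 4 had such a peak, with 0.929 given by length. The counts were 2 of 9 for hepatocyte and hepatoma markers (1.45 by length), 1 of 6 for Schwann cell and glial markers (0.976), 2 of 4 for endothelial markers (1.07), 0 of 5 for B cell markers (0.929), 1 of 5 for NK cell markers (0.588) and 2 of 5 for fibroblast markers (0.946). The 3 of 6 T cell markers (0.880) shared 1 peak. Their part in the results below was not tested.

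The sequences of the sites on which the results turn are shown here, 201 bases around each summit on the plus strand of mm10 (GRCm38.p6), with the 21 bases centred on the summit in capitals. The first 4 are the sites at these genes that were in the list of CXD101 over vehicle, and each was also in the list of MS-275 over vehicle.
Syn3, chr10:86166891-86167091: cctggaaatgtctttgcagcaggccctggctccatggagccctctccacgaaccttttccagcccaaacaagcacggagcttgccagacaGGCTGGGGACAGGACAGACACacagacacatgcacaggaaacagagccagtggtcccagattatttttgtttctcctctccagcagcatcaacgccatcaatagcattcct
Syn3, chr10:86167261-86167461: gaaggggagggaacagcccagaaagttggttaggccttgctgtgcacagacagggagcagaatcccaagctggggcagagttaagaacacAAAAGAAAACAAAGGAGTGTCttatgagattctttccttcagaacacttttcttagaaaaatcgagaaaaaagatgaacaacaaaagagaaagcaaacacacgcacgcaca
Syn3, chr10:86174315-86174515: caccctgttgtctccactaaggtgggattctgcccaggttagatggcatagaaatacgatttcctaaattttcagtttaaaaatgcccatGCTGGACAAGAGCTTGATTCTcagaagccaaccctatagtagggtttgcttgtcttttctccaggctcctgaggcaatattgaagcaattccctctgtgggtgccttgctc
Rims1, chr1:22806132-22806332: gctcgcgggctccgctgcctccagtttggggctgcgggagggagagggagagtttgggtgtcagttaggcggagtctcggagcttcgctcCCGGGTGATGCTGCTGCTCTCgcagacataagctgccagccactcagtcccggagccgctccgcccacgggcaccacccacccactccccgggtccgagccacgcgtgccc
The next 7 are the sites at these genes in which the inhibitors were told apart by direct comparison, 6 with more signal after MS-275 and the last, in Gfra1, with more after CXD101.
Syt2, chr1:134666573-134666773: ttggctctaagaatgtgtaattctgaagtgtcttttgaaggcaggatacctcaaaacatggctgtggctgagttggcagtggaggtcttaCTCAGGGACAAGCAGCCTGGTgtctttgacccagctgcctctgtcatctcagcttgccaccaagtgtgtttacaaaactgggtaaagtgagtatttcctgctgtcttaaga
Unc13a, chr8:71668384-71668584: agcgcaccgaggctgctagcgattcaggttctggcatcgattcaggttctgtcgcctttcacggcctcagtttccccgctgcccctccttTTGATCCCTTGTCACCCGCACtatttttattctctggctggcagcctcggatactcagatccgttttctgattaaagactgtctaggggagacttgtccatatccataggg
Syn3, chr10:86060582-86060782: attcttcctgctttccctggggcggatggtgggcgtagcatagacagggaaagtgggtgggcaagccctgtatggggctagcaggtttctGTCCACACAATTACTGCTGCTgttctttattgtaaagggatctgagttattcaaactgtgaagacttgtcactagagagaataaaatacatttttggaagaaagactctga
Rest, chr5:77252029-77252229: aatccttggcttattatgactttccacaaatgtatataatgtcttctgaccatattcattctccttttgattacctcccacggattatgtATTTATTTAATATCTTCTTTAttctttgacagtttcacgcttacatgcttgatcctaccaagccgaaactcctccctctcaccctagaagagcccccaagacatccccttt
Ncam1, chr9:49796932-49797132: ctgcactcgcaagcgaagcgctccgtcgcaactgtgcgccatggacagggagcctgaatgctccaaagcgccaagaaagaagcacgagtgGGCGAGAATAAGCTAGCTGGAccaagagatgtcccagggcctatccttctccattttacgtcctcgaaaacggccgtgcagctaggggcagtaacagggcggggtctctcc
Cacna1a, chr8:84601407-84601607: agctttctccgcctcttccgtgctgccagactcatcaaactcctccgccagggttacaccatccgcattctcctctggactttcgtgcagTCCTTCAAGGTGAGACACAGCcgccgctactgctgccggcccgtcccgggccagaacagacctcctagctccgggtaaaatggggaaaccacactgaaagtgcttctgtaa
Gfra1, chr19:58255312-58255512: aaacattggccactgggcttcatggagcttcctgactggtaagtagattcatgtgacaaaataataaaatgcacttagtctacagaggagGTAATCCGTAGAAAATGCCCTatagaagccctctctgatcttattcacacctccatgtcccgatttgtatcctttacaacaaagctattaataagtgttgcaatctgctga
The final site, upstream of Cacna1b, was the only one at these genes in the list of vehicle over MS-275.
Cacna1b, chr2:24777622-24777822: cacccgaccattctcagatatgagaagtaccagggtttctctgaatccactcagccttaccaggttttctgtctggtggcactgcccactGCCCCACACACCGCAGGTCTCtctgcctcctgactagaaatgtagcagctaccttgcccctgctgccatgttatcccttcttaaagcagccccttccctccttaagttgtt
The Rims1 site was the richest of the 12 in CpG, with 17 CpG dinucleotides in 201 bases, while the Syt2 site held 0 and the lead Syn3 site 3.

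To ask whether inhibition of HDAC1 to HDAC3 opened neuronal genes in these cells, the number of genes with a peak was counted in each list. Of the 37 genes, 13 (35.1%) had a peak of MS-275 over vehicle, against a background of 18.8% of all protein-coding genes. The counts only describe the genes, which were chosen with these peaks known. The comparison depends on gene length, since the neuronal genes had a median length of 116 kb against 17.4 kb, and 20 of them were in the class of the longest genes of 10, above 111 kb. If each gene had the share of its length class, 11.4 of the 37 would have a peak. Among genes over 200 kb, 6 of 14 neuronal genes had a peak, and 47.5% of all genes of that length did. Between 50 and 200 kb the count was 3 of 10, beside 28.5%. Under 50 kb it was 4 of 13, beside 14.8%, and these 4 were Stx1a, Syt3, Vamp1 and Unc13a. Under 50 kb the count was above the share for that length, and over 200 kb it was just under it. With so few genes in a band, chosen with their peaks known, no pattern by length can be read from these counts.

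**Figure D1:**
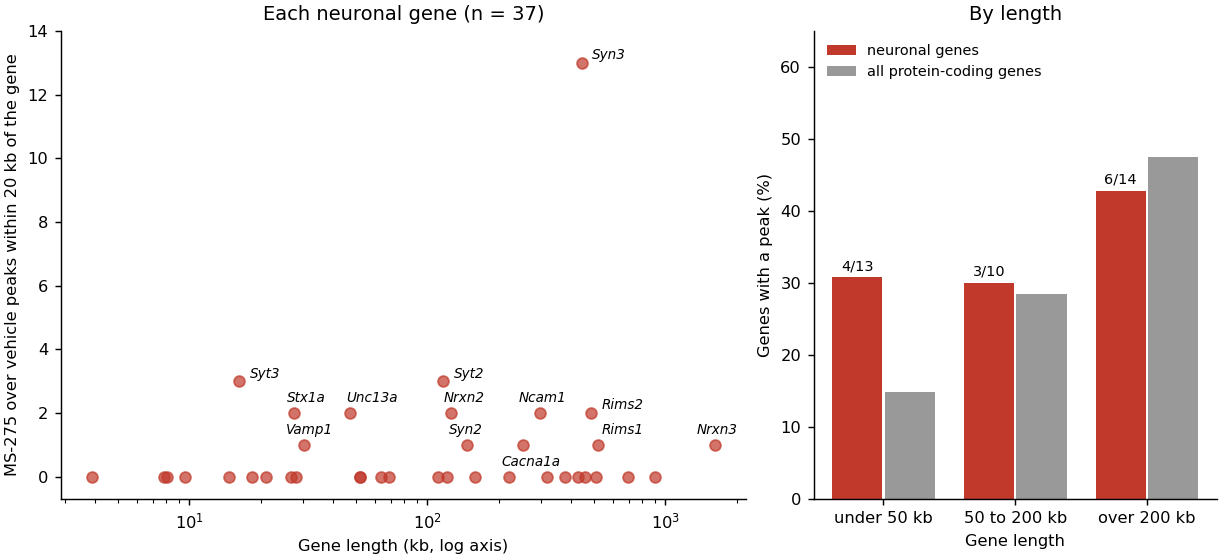
Number of MS-275 over vehicle peaks within 20 kb of each of the 37 neuronal genes against gene length (kb, log axis), and the percent of genes with such a peak in 3 length bands for the neuronal genes (red, counts above the bars) and for all protein-coding genes (grey). Syn3 stands alone with 13 peaks, and the bars of both gene sets are close together above 50 kb.

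The other lists named few of the genes. CXD101 over vehicle had peaks at 2 genes (Syn3 and Rims1, background 0.970%, 0.770 genes from the length classes) and vehicle over MS-275 at 1 gene (Cacna1b, background 2.93%, 1.65 from length). Vehicle over CXD101 had peaks at 1 gene as well, again Cacna1b (background 3.65%, 1.77 from length). MS-275 over CXD101 named 6 genes, namely Syn3, Syt2, Unc13a, Ncam1, Cacna1a and Rest, against a background of 6.68% and 3.66 genes from length. CXD101 over MS-275 named only Gfra1, against a background of 0.0138%. In all, 16 genes had a peak in some list and 21 had none. Both inhibitors were set against the same vehicle libraries, so the lists over vehicle are not independent of each other.

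The 34 peaks of MS-275 over vehicle were unevenly spread among the 13 genes. Syn3 held 13 of them, Syt2 and Syt3 had 3 each, 5 genes had 2 each and 5 had 1. Per unit of genome the 37 genes had 3.31 peaks per Mb of gene and flank, and 2.14 per Mb without Syn3. All protein-coding genes had 4.54 per Mb, and those over 200 kb had 3.09 per Mb. By role, the density was 11.9 per Mb for vesicle and fusion genes (6.92 per Mb without Syn3, which holds most of the peaks), 2.28 per Mb for active zone and adhesion genes, and 0 for the 8 receptor genes, whose windows covered 2.77 Mb. As the genes were chosen with their peaks known, these densities describe the listed genes and not the roles. The fold enrichment of the 34 peaks ran from 1.85 to 8.47 with a median of 3.16, beside a median of 2.88 for the whole list. Without the Syn3 peaks the median was 3.09.

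**Figure D2:**
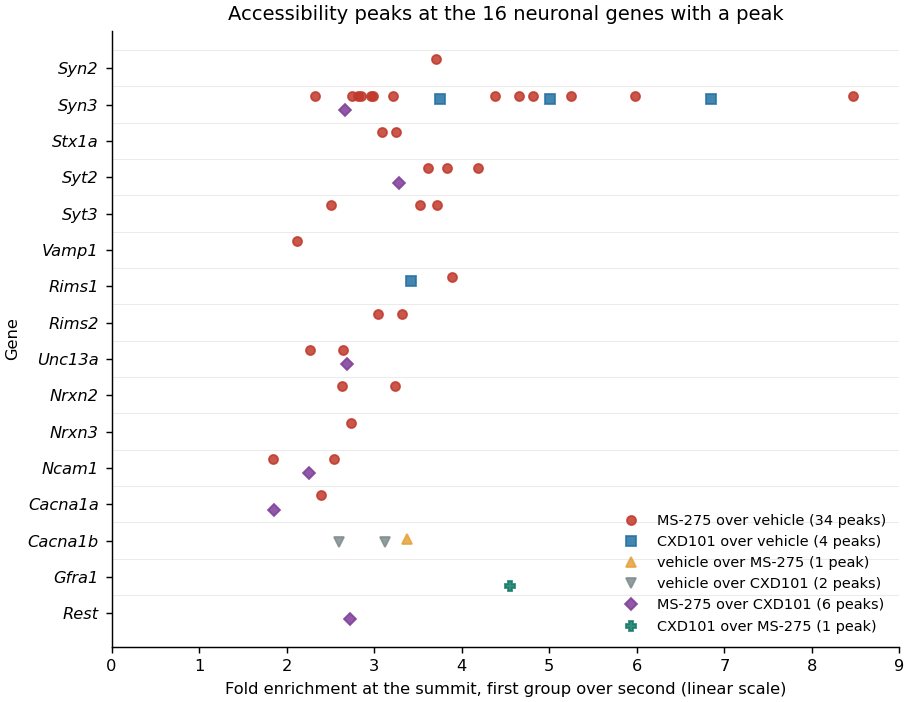
Fold enrichment at the summit (linear scale, first group of the pair over the second) of every peak at the 16 neuronal genes that had a peak, with 1 point per peak and colours for the 6 lists. Most points lie between 2 and 4, and Syn3 extends to 8.47 for MS-275 and 6.85 for CXD101.

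Among vesicle and fusion genes, 6 of 12 had a peak of MS-275 over vehicle, with 3.11 given by length. Syn3, which encodes synapsin III, a vesicle-tethering phosphoprotein, led the set. Its 13 peaks lay in 10 separate intervals, and only 21 of the 21755 protein-coding genes (0.0965%) had as many. That count takes no account of length, and Syn3 is 444 kb long. Per Mb of gene and flank Syn3 had 26.9 peaks, fewer than Syt3 (53.5) and Stx1a (29.6). The strongest summit, in an intron 332 kb into the gene, had 75.2 tags in the MS-275 pool over a vehicle level of 8.0, a fold of 8.47. It ranked 3 by fold and 5 by p-value among all 8480 peaks. At the same site the CXD101 pool had 60.7 tags over a vehicle level of 8.0, a fold of 6.85, which ranked 1 of 284 by both measures. A neighbouring summit had 51.6 tags after MS-275 and 43.1 after CXD101, each over a vehicle level of 7.8, for folds of 5.98 and 5.01. The third shared site, 324 kb into the gene, had folds of 5.25 after MS-275 (83.1 tags over 15.0) and 3.75 after CXD101 (54.5 over 13.8). At all 3 sites both inhibitor pools were far above the vehicle level, and the MS-275 pool was the higher, but none of the 3 was in the direct list of MS-275 over CXD101. The first 2 of these summits lay in sequence that the assembly marks as repeat, where reads can be harder to place.

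The other 10 Syn3 summits of MS-275 over vehicle had no CXD101 summit at them. In the central cluster, 3 more summits had folds of 4.81 (67.3 tags over 13.2), 2.96 and 2.32. A pair of intervals 340 to 341 kb into the gene had folds of 4.66 (71.7 tags over 14.6) and 4.38 (57.7 over 12.4). A cluster at the 3′ end had folds of 2.99 and 2.85 at 2 summits of an interval, and 3.22 (104 tags over 31.6) just downstream of the gene, 1.31 kb from the neighbouring gene Fbxo7. The remaining 2 peaks, with folds of 2.82 and 2.75, were the closest to Timp3, an inhibitor of matrix metalloproteinases that is nested in Syn3. They lay 4.21 kb and 7.76 kb from the Timp3 start site, the latter inside Timp3. No Syn3 peak was within 100 kb of the Syn3 start site, and the nearest was 188 kb from it. For every peak assigned to Syn3, the nearest protein-coding start site was that of Timp3 or Fbxo7. The lead site was 133 kb from the Timp3 start and 332 kb from the Syn3 start.

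**Figure D3:**
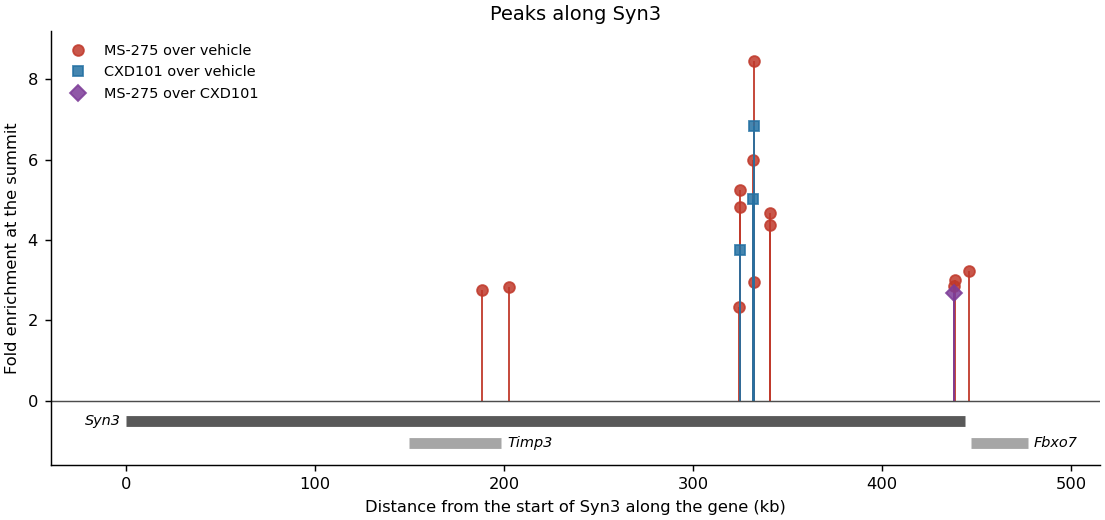
Fold enrichment of each Syn3 peak (stems; circles MS-275 over vehicle, squares CXD101 over vehicle, diamond MS-275 over CXD101) against the distance from the Syn3 start along the gene in kb, with the spans of Syn3, the nested Timp3 and the neighbouring Fbxo7 as bars. The CXD101 peaks fall on the central cluster, 324 to 332 kb from the start, where the MS-275 folds are highest.

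Syt2 and Syt3 encode synaptotagmins, of which Syt2 is a fast calcium sensor of vesicle release. The 3 Syt2 peaks lay in the gene, 19981, 20331 and 24927 bases from a start site, with folds of 4.19 (56.0 tags over 12.6), 3.62 (53.3 over 14) and 3.83 (27.1 over 6.34). The 3 Syt3 peaks clustered at its 3′ end, 2 in the 3′ untranslated region and 1 just downstream, with folds of 2.51, 3.52 and 3.72. Stx1a, which encodes the SNARE protein syntaxin 1A, was the only vesicle gene with a peak at its own promoter. Its 2 peaks flanked the start site, 194 bases upstream (54.2 tags over 16, a fold of 3.25) and 114 bases downstream (51.6 over 16, a fold of 3.09). Syn2, for synapsin II, had an intronic peak with a fold of 3.71 (32.4 tags over 8.0), 18.2 kb from the start of Timp4. The peak of Vamp1, a vesicle SNARE, had a fold of 2.12 (54.2 over 25.0) and lay 205 bases from the start site of Tapbpl, a gene of antigen presentation that overlaps Vamp1. Snap25, Syt1, Syt4, Syt5, Syt7 and Vamp2 had no peak in any list. Snap25 was just outside the rule: the nearest peaks, 4 of MS-275 over vehicle, lay 33.1 to 34.8 kb from the gene with folds of 3.47, 3.41, 3.11 and 1.89. A peak of MS-275 over CXD101 lay among them, 34.4 kb from the gene with a fold of 2.82.

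Among active zone and adhesion genes, 6 of 9 had a peak of MS-275 over vehicle, with 3.05 given by length, and 4 of the 6 had it within 1 kb of an own start site. Of 40 other genes of this role, not among the chosen 37, 10 had a peak of that list, with 12.3 given by length. Rims1 and Rims2 encode RIM proteins, scaffolds that dock vesicles. The Rims1 promoter had 26.2 tags after MS-275 over a vehicle level of 6.0 and 26.4 after CXD101 over 7.0, with folds of 3.89 and 3.42 at summits 339 and 238 bases upstream of the start. The tags of the inhibitor pools were thus close, and the Rims1 site was not in either direct list. Rims2 had a peak 99 bases upstream of a start site (26.2 tags over 7.2, a fold of 3.32) and another in an intron with a fold of 3.04. Nrxn3, a neurexin gene of 1612 kb and the longest of the 37, had 1 peak, 332 bases upstream of an internal start site, with a fold of 2.74 (29.7 over 10.2). Ncam1, for the neural cell adhesion molecule, had folds of 1.85 and 2.54 at 0.566 and 1.73 kb inside the gene. Unc13a, which encodes the priming factor Munc13-1, had a fold of 2.64 (98.8 tags over 36.8) 3.25 kb inside the gene and 2.27 in its 3′ untranslated region. Nrxn2 was at the edge of the rule: the 2 summits of a single interval, 19.9 and 20.2 kb upstream of the gene, had folds of 3.24 and 2.63 but lay 0.459 and 0.857 kb from the start of Rasgrp2, a guanine nucleotide exchange factor of blood cells. Nlgn1, Nlgn2 and Celsr3 had no peak.

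The 8 receptor genes had no peak in any of the 6 lists. They were Gria1, Gria2 and Gria4 for AMPA receptor subunits, Grin1, Grin2a and Grin2b for NMDA receptor subunits, Grik2 for a kainate receptor subunit and Chrnb2 for a nicotinic receptor subunit. With a median length of 349 kb they would have had 2.87 genes with a peak of MS-275 over vehicle by the shares of their length classes. Of the ion channels, Cacna1a, the P/Q-type calcium channel, had an intronic peak with a fold of 2.39 (51.6 tags over 21.0) whose summit was 1 base from an exon. The sodium channel gene Scn3a had none. Cacna1b, the N-type calcium channel, was the only gene with a loss. Its site 14.6 kb upstream had 26.0 tags in the vehicle pool over an MS-275 level of 6.99 (a fold of 3.38). An interval nearby, 13.1 to 13.4 kb upstream, had 46.0 and 29.0 vehicle tags over CXD101 levels of 14.1 and 10.6, for folds of 3.12 and 2.60. These intervals did not overlap and lay between Cacna1b and Ehmt1, 12.2 to 13.7 kb from the latter. Of the growth and trophic genes, Stmn2, Stmn3 and Bdnf had no peak. Gfra1, a coreceptor for glial cell line-derived neurotrophic factor, and Rest had peaks in the direct lists only.

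The direct lists compared the inhibitors with each other at the same dose and schedule. In 7 sites at 7 of these genes the pools differed by the caller's test, 6 toward MS-275 and 1 toward CXD101, while the whole lists held 1650 and 2 peaks. At the Syt2 site the MS-275 pool had 64.6 tags over a CXD101 level of 19, a fold of 3.28, and the same site had a fold of 4.19 over vehicle. At the Unc13a site the values were 115 tags over 42.2, a fold of 2.69, beside 2.64 over vehicle. Near the 3′ end of Syn3 they were 63.6 over 23.2, a fold of 2.67, beside 2.85 over vehicle. For Ncam1 the fold was 2.26 (63.6 over 27.6) beside 2.54 over vehicle, and for Cacna1a it was 1.86 (58.7 over 31.0) beside 2.39. Thus 5 of the 6 sites were also gained over vehicle after MS-275, and none of the 5 was in the list of CXD101 over vehicle.

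Rest was the exception among the 6. Its site lay 13.4 kb upstream of the start, with Rest as the nearest gene. It had 92.5 tags in the MS-275 pool over a CXD101 level of 33.4, a fold of 2.72. It was in none of the lists that involve vehicle, so its direction against vehicle is not known. Gfra1 had the reverse difference. An intronic site 199054 bases from its start had 52.0 tags in the CXD101 pool over an MS-275 level of 10.7, a fold of 4.55. This site ranked 1 of the 2 peaks of that list by fold. It too was in no list that involves vehicle. Its 201 bases were 40.3% G or C, those of the Rest site 38.8%, and both summits lay in marked repeats.

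**Figure D4:**
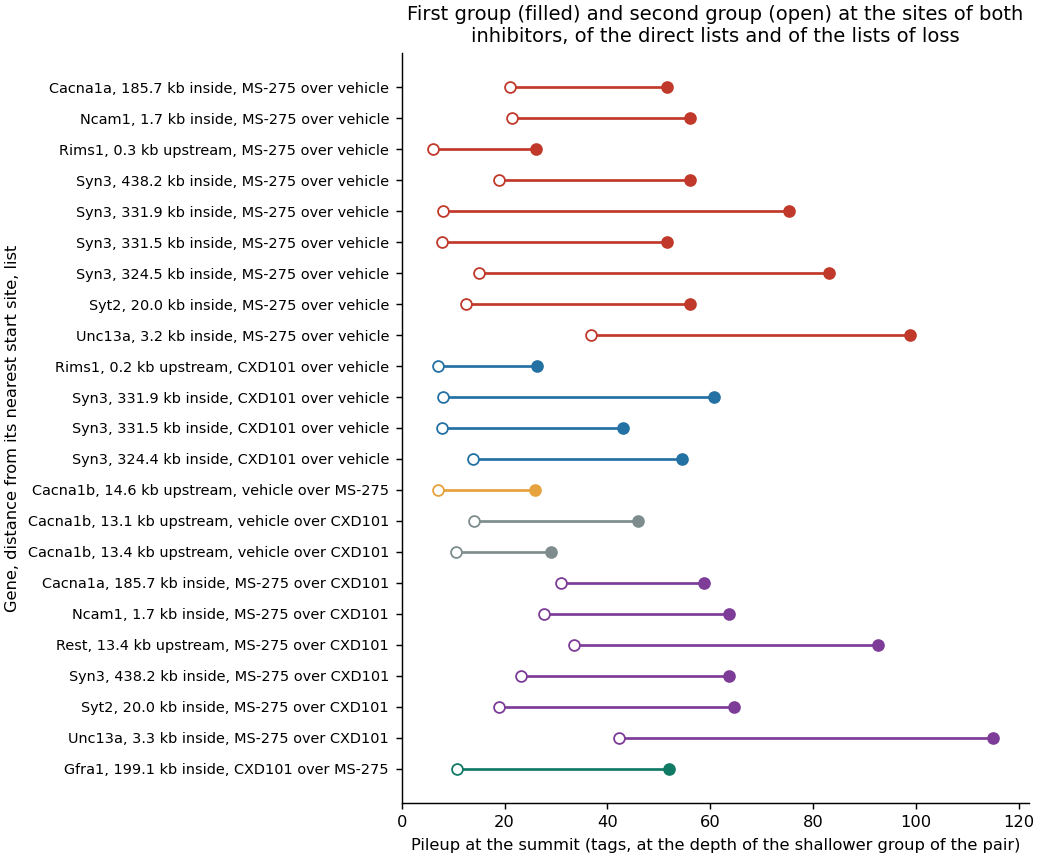
Pileup of the first group (filled) and control level of the second group (open) of each list, in tags at the depth of the shallower pool. The sites are those found with both inhibitors, in the direct lists or in the lists of vehicle over an inhibitor. The lead Syn3 site spans 8.0 to 75.2 tags with MS-275 and 8.0 to 60.7 with CXD101, and the Unc13a site has the highest value of both kinds.

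Of the 34 peaks of MS-275 over vehicle, 24 were intronic, 3 were in an exon or untranslated region, 5 were upstream and 2 downstream of the gene. Only 6 (at Stx1a, Rims1, Rims2, Nrxn3 and Ncam1) were within 1 kb of an own start site. These are 5 of the 37 genes, beside a background of 4.91% of all protein-coding genes, which was not matched for length. Of 173 other neuronal genes, from fixed lists, 4 had such a peak. Since the 37 genes were chosen with their peaks known, the count is a description. For 15 of the 34 peaks, at 8 genes, the member's own start site was the nearest protein-coding start, and for 3 peaks the start of another gene was within 1 kb. The median GC content around the summit was 52.5%, beside 49.8% for the whole list. The summit was in a repeat for 8 of 34 peaks (23.5%, 95% Wilson interval 12.4 to 40.0%) and for 17.0% of the list, and 6 of these 8 were at Syn3, since 2 of 21 remained without it. The intervals cover counting error only and treat summits as independent, although neighbouring summits share a gene, so they can be too narrow.

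Short motifs were searched within 100 bases of the summit on both strands. The AP-1 motif TGANTCA was found in 5 of 34 peaks (14.7%, interval 6.45 to 30.1%), at Syn3 in 3, and at Syn2 and Rims1. Its share was 4.55% in the whole list and 4.06% in windows of the same size around 54050 protein-coding start sites. The PU.1 motif GAGGAAG, read by a master regulator of myeloid cells, was found in 3 of 34 (8.82%, interval 3.05 to 23%) beside 9.60% of the list and 9.98% of start sites. The GC box GGGCGG was found in 7 of 34 (20.6%, interval 10.3 to 36.8%) beside 10.6% and 37.6%. The cyclic AMP response element TGACGTC was found in 0 of 34 and in 0.472% of the list. Without Syn3 the AP-1 share was 2 of 21 (9.52%, interval 2.65 to 28.9%), so every one of these shares was loosely determined. As many summits share a gene, and the genes were chosen with their peaks known, the intervals are no test of enrichment.

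The RE1 element of REST was written as a left arm CAGCACC, 2 free bases and a right arm GGACAGC, and up to 2 mismatches were allowed at a summit. It was found at 0 of the 34 peaks (interval 0 to 10.2%), beside 0.495% of the list and 0.735% of the windows at start sites. With a share that low in the list, 34 peaks are too few to show a lack of RE1. It was also absent within 100 bases of the summits at these genes in the other 5 lists. The genes themselves held many matches. With at most 1 mismatch there were 29 matches in the windows of 23 of the 37 genes, 2.82 per Mb, beside 1.23 per Mb for all protein-coding genes and 2.28 per Mb for 173 other neuronal genes. Matches without a mismatch numbered 7, or 0.681 per Mb, beside 0.159 per Mb for all genes. With up to 2 mismatches, the limit used at the summits, the densities were close, at 13.2 per Mb for the 37 genes, 13.1 for all protein-coding genes and 12.6 for the other neuronal genes. The 7 matches without a mismatch lay in the windows of Syt2, Cacna1b, Grin1, Snap25, Stmn2, Chrnb2 and Grin2a. The 2 matches closest to any peak, in Syt2 and Syn3, and 2 promoter matches with no mismatch, of Grin1 and Chrnb2, are shown on the strand of the match, with the bases that fit the arms in capitals.
Syt2, chr1:134665007-134665022: CAGCACCacGGACAGC
Syn3, chr10:86159970-86159985: CAGCACCatGaACAGC
Grin1, chr2:25319017-25319032: CAGCACCtcGGACAGC
Chrnb2, chr3:89764457-89764472: CAGCACCacGGACAGC
The Syt2 match was 1.32 kb and the Syn3 match 1.02 kb from the edge of the nearest peak, both of MS-275 over vehicle. The promoter matches given next were farther from any peak of the 6 lists. Their genes had no peak within 20 kb in any list, so a long distance was fixed by that. The match near the start of Cacna1b, a gene with peaks, lay closer to a peak than they did. Distances from other start sites were not computed, so whether promoter matches in particular stayed unopened was not tested. Grin1 had its match 0.070 kb from a start site and 77.8 kb from a peak, and Chrnb2 had 0.143 kb and 215 kb. For Bdnf, a neurotrophin gene, the match was 0.158 kb from a start site and 218 kb from a peak, and for Gria2 it was 0.164 kb and 268 kb. Stmn3 and Celsr3 had 93.8 and 99.8 kb to the nearest peak, and Snap25 34.0 kb. A match is a run of letters and not a measured binding site.

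**Figure D5:**
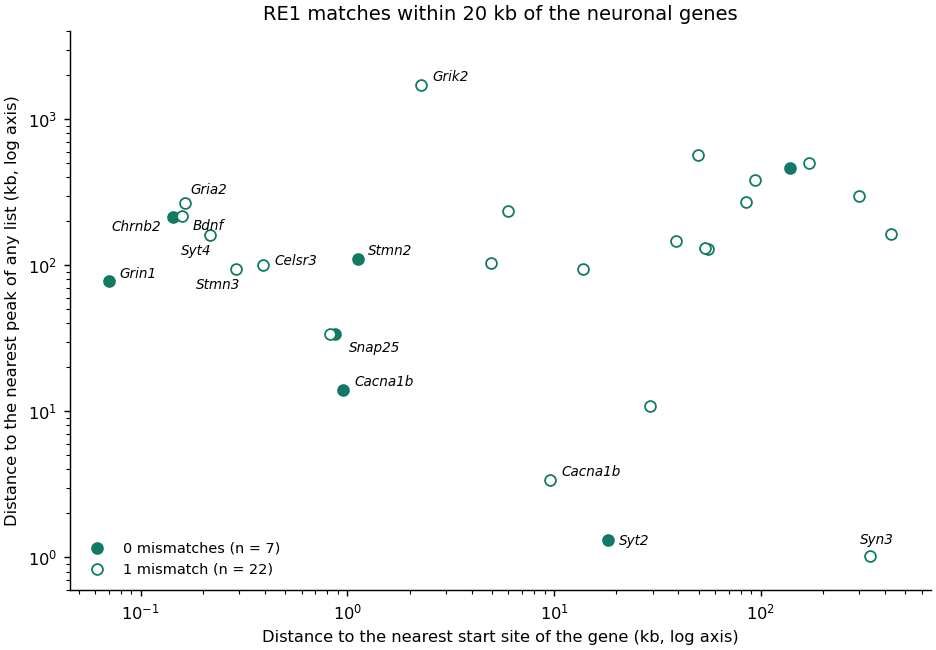
Distance from each of the 29 RE1 matches (at most 1 mismatch) in the windows of the 37 genes to the nearest start site of its gene (x, kb, log axis) and to the nearest peak of any of the 6 lists (y, kb, log axis). Filled points have no mismatch. Of the genes with a match less than 2 kb from a start site, only Cacna1b had a peak in any list. The matches less than 2 kb from a start site, on the left, are 14 kb or more from a peak, and the closest peaks belong to Syt2 and Syn3.

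Other genes of the same roles, from fixed lists, were counted in the same way. Of 173 such genes 27 (15.6%) had a peak of MS-275 over vehicle, with 48.8 given by length, and 4 had a peak of CXD101 over vehicle, with 3.11 given by length. By role, 4 of 30 vesicle and fusion genes had a peak of MS-275 over vehicle (7.05 by length), as did 10 of 40 active zone and adhesion genes (12.3), 5 of 37 receptor genes (11.8), 2 of 27 channel genes (8.61) and 6 of 39 growth and trophic genes (8.99). In each role the count was under that given by length. These genes are those left after the 37 were chosen, so the sets have to be read together: without Rest, 40 of the 209 neuronal genes (19.1%) had a peak of MS-275 over vehicle, with 60 given by length, and 6 had a peak of CXD101 over vehicle, with 3.87 given by length. The vesicle genes with the lowest p-values were Slc32a1, the vesicular transporter of GABA and glycine, with 7 peaks and a top fold of 4.18, Syngr1 with a fold of 3.72 and Sv2c with 2.57. Unc13b (a fold of 4.32), Dlgap1 (4.08) and L1cam (2.63, at a site 683 bases from the start of Arhgap4) led the active zone and adhesion genes. Grik4 (3.05), Gria3 (3.59) and Glra1 (3.87) led the receptors, and the Gria3 site lay 529 bases from its start. Cacna1d (4.77) and Kcnh1 (2.41) were the only channels, and the Cacna1d site lay 71 bases from the start of Chdh and 330 kb from an own start. Among growth genes Gfra2 (3.84), Ntrk2 (2.87) and Ntrk3 (4.49) led, the last 204 bases from its start. The 4 genes with a peak of CXD101 over vehicle were Dlg2 (3.06), Kcnh1 (2.16), Scg3 (2.10, at a site 223 bases from the start of Lysmd2) and Chrna7, a nicotinic receptor whose peak was 108 bases from its start (2.60).

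Of 16 genes for REST corepressors and their partners, 4 had a peak of MS-275 over vehicle, with 3.8 given by length. Cdyl had a fold of 1.99 at 214 bases from its start, Rcor2, a CoREST family gene, 2.40 at 216 bases, and Ehmt2 3.10 and Sin3b 2.86 at sites 121 and 150 bases from the start of another gene. None of the 16 had a peak of CXD101 over vehicle. With 3 of 16, the vehicle over MS-275 list held peaks at Hmg20b, Ehmt1 and Sin3a, and the vehicle over CXD101 list, which shares the vehicle libraries, held peaks at the same 3 genes. By length 0.641 and 0.718 of the 16 were given, and the shares over all protein-coding genes were 2.93% and 3.65%. The Hmg20b sites lay 309 bases from the start of 4930404N11Rik, and the Sin3a sites 202 and 199 bases from the start of Man2c1. The Ehmt1 peaks are the intergenic sites that were also assigned to Cacna1b.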

How the data were processed

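Accessibility was measured by ATAC-seq in 6 libraries, 2 per group, grouped by their treatment labels. Per the labels and the methods, the authors used Bowtie2 for alignment to mm10, pooled each group, and compared groups by MACS2 2.2.7.1. The deposited values are a fold enrichment, a −log10 p-value, a −log10 q-value and a summit offset in bases. The fold is a linear ratio of pileup to control level, with a pseudocount of 1 added to each. The depth per library was not used here. ATAC-seq reads are often shifted to the cut site, while the methods give a shift of 0, so a summit may be displaced by a few bases. The lowest −log10 q-value was 1.30, which sets a q-value of 0.05 as the limit of the lists, and not the p-value threshold that the methods name. Each summit counted as 1 peak.

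Tags and control levels were solved from fold and p-value for all 11800 peaks. The tolerance was 0.005, and wider in proportion at high tag counts. The list of CXD101 over MS-275 had 2 peaks, too few to fit a scaling factor, so 1 was used with a looser tolerance. A second solution existed for some peaks (115 of 8480 in MS-275 over vehicle), but for no peak at these genes. MACS2 takes the largest of its local averages as the control level, which makes it an upper estimate. On peaks drawn with known tags (300 at each scaling factor) 100% were recovered. Genes came from GENCODE M21 and sequence from GRCm38.p6. Counts given by length are the summed shares of genes with a peak in 10 classes of length. Shares have 95% Wilson intervals, and no p-value was computed.

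The members and gene lists were chosen with earlier results of these data known, so their counts are descriptions. Named were Rest, members with a peak in a list other than MS-275 over vehicle or within 1 kb of an own start site, the 10 with the highest −log10 p-values, and of each fixed list the top 3 and all with a CXD101 over vehicle peak. Other members were given by name and number of peaks. The RE1 sequences shown and the values of Snap25, Vamp1, Rcor2 and the corepressor losses were added after the data were seen. Alternatives were other flanks, the nearest start site, stricter q-values, a fold of at least 2, merged intervals, other length classes and all annotated genes. Python 3.11.15, NumPy 2.4.6, pandas 2.3.3, SciPy 1.17.1 and matplotlib 3.10.9 were used.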

Additional observations from a re-analysis of the deposited data

Results flagged for a closer look

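At 7 sites the pools of the 2 inhibitors differed in the authors' direct test, and these are the sites to look at again. The folds of MS-275 over CXD101 were 3.28 at Syt2, 2.72 upstream of Rest, 2.69 at Unc13a, 2.67 near the 3′ end of Syn3, 2.26 at Ncam1 and 1.86 at Cacna1a. The fold of CXD101 over MS-275 was 4.55 in Gfra1. Each is a difference between pools of 2 libraries, with no spread between libraries behind it. The Rest and Gfra1 sites were in no list that involves vehicle.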

How the results depend on the processing

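No paired analysis was possible because each list was called on pooled libraries, and for the same reason no library could be left out in turn. With the gene body alone, 1 gene (Syn3) had a peak of CXD101 over vehicle, 1 gene was gained under both inhibitors, and 0 had a peak of vehicle over MS-275 or of vehicle over CXD101. With the body and 5 kb upstream those 2 losses were again 0. With 50 kb on either side they were 3 and 2. Where a peak was given only to the gene with the nearest start site, 8 genes had a peak of MS-275 over vehicle, 1 of CXD101 over vehicle and 1 under both, the sites of Syn3, Syn2, Vamp1, Nrxn2 and Cacna1a going to other genes. Leaving out Syn3, an alternative chosen after seeing the data, left 21 of 34 peaks of MS-275 over vehicle and 1 of 4 of CXD101 over vehicle. Of 195 comparisons of a value with an alternative, 145 were labelled the same and 50 moved, most of the latter background shares. The limit behind these labels is not given here, so the counts do not measure stability. Read depth sets which sites pass a list's threshold, and a site absent from a list may differ by less than that threshold.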
